A study of Mus musculus with 3 samples.

Results

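Intervals that the deposited lists place under more than 1 gene are described here. A gene list was given for each of 2 DamID fusions, and every gene carried the intervals assigned to it. The intervals of each list were split out, and an interval was taken as shared when it stood under at least 2 different gene identifiers of the same list. By that rule 279 of the 7166 intervals of the GFI1:DAM list were shared (3.89%), as were 381 of the 7595 intervals of the GFI1B:DAM list (5.02%). The exact 95% binomial intervals ran from 3.46% to 4.37% for GFI1:DAM and from 4.54% to 5.53% for GFI1B:DAM, and they cover counting error over intervals only. The intervals were selected on the deposited gene assignment alone, so their gene counts are a description and carry no test.

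In DamID, a DNA adenine methyltransferase marks GATC sites near the place where a fused protein sits, and DpnI cuts the marked sites. GFI1 and GFI1B are related zinc-finger repressors. The fusions GFI1:DAM and GFI1B:DAM and the DAM control were each placed at the doxycycline-inducible Hprt docking site of ainv18 mouse embryonic stem cells, so all 3 groups carry a DAM transgene that is driven by the drug and not by a native promoter. FLK1-positive cells came from embryoid bodies of day 3.25, and haemogenic endothelium, the endothelium that gives rise to blood cells, was sorted by TIE-2 and c-KIT on day 2 of culture. Each of the 3 samples stands for 2 biological replicates together. No value therefore has a replicate error, no test between the fusions was possible, and differences between the lists are given as counts and shares. The DAM control enters no comparison here, and the sorted cell identity cannot be checked in lists of marked DNA. Library depth is unknown, and the lists were not scaled to each other.

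Bidirectional promoters, in which neighbouring genes start close together and are read in opposite directions, are common in mammalian genomes. Antisense RNAs and long intergenic noncoding RNAs (lincRNAs) often start near the promoter of a coding gene or run across its body. Many small RNAs, among them small nucleolar RNAs (snoRNAs) and microRNAs, are cut from the introns of a host gene. An interval in any of these places may be listed under several genes, and the gene it acts on cannot be told apart from such a list.

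Candidate shared promoters were sought among pairs of genes listed with the same interval. A pair was called head to head when its genes lay on opposite strands and their promoter windows, from 250 bases before to 50 bases after the start in RefSeq on GRCm38.p6, overlapped. There were 34 such pairs by name, 5 of them in both lists, and 2 of the 34 were the same pair of table genes under different names. Only pairs with both genes matched to the table and both strands known could be called. Both genes matched for 149 of 281 GFI1:DAM pairs and 256 of 438 GFI1B:DAM pairs, so further pairs may have been missed. The windows of 4 of these 5 are printed first because both fusions had an interval under both genes. The next 5 are examples from 1 list, each with at least 1 gene of known role: Gfm2/Nsa2 in the GFI1:DAM list, and Sin3a/2700012I20Rik, Aurka/Cstf1, Bcl2l12/Irf3 and Hadha/Hadhb in the GFI1B:DAM list. Each line gives the window of the gene named first, 5′ to 3′ on its own strand, and capitals mark the bases that also lie in the window of the partner. The deposited intervals are in mm9 coordinates, so no interval was laid onto these windows.
Mfap1a/Wdr76: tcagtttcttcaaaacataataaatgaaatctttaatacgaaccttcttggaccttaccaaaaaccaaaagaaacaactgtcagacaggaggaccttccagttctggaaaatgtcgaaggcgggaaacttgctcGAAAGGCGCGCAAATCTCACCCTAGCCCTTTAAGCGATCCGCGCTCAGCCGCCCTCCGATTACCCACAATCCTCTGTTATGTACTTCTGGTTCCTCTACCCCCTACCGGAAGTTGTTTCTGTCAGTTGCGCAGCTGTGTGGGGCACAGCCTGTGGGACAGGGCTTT
Nfs1/Romo1: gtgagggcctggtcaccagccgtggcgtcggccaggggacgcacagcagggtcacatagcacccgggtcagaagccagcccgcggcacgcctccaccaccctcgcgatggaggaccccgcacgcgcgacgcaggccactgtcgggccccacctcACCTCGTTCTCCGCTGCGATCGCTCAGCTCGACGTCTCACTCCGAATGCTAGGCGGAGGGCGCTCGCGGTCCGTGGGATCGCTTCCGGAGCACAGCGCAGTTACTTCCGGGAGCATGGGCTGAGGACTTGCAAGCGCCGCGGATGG
Kdm2b/A930024E05Rik: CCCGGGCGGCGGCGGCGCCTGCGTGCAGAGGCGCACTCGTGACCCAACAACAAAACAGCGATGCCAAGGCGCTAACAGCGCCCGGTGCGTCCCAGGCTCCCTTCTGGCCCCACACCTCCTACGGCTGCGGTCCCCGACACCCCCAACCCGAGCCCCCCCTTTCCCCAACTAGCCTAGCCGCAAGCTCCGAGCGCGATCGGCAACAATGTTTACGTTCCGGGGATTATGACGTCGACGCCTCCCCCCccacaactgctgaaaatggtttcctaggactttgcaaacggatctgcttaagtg
Scn1a/Gm13629: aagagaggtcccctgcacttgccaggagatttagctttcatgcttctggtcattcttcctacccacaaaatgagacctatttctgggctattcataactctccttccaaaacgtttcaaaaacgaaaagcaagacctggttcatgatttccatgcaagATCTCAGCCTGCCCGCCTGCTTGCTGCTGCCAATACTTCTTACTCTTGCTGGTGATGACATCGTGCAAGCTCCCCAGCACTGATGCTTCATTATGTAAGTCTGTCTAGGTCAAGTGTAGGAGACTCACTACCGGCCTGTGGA
Gfm2/Nsa2: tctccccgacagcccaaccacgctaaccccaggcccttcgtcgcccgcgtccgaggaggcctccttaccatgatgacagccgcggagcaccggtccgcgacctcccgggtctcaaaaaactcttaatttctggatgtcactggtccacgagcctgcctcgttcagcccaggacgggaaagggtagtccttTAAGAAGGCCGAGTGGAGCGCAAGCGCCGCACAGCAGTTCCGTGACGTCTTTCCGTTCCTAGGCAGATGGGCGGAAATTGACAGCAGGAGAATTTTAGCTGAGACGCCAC
Sin3a/2700012I20Rik: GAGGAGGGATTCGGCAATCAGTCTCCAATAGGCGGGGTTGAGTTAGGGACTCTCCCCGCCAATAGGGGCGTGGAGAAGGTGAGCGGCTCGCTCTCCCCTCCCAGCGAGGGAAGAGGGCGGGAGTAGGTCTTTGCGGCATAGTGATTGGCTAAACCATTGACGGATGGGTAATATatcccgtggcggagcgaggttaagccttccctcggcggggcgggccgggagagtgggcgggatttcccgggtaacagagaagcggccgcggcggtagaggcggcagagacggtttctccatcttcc
Aurka/Cstf1: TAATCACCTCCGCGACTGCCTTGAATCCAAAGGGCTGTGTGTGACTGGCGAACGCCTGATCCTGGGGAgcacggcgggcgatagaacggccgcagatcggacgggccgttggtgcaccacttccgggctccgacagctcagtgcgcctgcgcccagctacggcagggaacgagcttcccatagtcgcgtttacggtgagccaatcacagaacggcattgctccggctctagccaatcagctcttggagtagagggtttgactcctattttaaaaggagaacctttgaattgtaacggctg
Bcl2l12/Irf3: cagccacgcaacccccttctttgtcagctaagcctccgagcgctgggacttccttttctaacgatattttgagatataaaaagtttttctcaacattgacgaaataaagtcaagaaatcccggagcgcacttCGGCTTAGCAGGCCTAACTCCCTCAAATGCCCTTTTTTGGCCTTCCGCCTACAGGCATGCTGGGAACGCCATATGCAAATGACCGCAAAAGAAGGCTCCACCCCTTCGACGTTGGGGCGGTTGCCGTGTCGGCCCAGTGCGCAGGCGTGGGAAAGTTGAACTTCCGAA
Hadha/Hadhb: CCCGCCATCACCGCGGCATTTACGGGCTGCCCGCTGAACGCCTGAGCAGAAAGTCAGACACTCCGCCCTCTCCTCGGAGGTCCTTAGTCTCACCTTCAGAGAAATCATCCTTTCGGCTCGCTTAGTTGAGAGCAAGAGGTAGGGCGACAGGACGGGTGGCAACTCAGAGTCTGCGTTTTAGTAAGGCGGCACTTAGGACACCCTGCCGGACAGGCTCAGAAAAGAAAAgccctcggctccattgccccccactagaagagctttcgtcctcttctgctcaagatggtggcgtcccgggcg
In GRCm38.p6 the windows lie at chr2:121506607-121506906 (minus strand) for Mfap1a, chr2:156144137-156144436 (minus) for Nfs1, chr5:122989050-122989349 (minus) for Kdm2b and chr2:66440788-66441087 (minus) for Scn1a. The other windows lie at chr13:97137687-97137986 (plus) for Gfm2, chr9:57076126-57076425 (plus) for Sin3a, chr2:172370521-172370820 (minus) for Aurka, chr7:44997530-44997829 (minus) for Bcl2l12 and chr5:30154931-30155230 (minus) for Hadha. The overlap of the windows was 166 bases for Mfap1a/Wdr76, 146 for Nfs1/Romo1, 246 for Kdm2b/A930024E05Rik and 142 for Scn1a/Gm13629. It was 110 bases for Gfm2/Nsa2, 174 for Sin3a, 68 for Aurka, 168 for Bcl2l12 and 228 for Hadha. The sequence GATC, which DAM methylates, was found 2 times in the printed window of Nfs1, Kdm2b and Aurka and 1 time in that of Mfap1a and Scn1a. It was found 0 times in the windows of Gfm2, Sin3a, Bcl2l12 and Hadha.

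MicroRNAs were the other members with a short product to show. Of the microRNA genes with a shared interval, 5 of 8 in the GFI1:DAM list and 4 of 6 in the GFI1B:DAM list matched a RefSeq mature sequence by name. The 3 that matched in both lists are printed with Mir335, which lies in an intron of the imprinted gene Mest. Capitals mark the seed, bases 2 to 8, which sets most of the target choice of a microRNA.
miR-3092-3p: gAAUGGGGcuguuuccccucc
miR-3092-5p: aGGGGAAAaugccuuucuccca
miR-5136: aUAUGCGAgggaacuacugg
miR-1894-5p: cUCUCCCCuaccaccugccucu
miR-1894-3p: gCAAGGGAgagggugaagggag
miR-335-5p: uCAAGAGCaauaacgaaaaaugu
miR-335-3p: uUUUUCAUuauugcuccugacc
No seed was shared among these 7 sequences. Mir3092 was listed with the interval of Fndc3b, Mir5136 with that of 1810009A15Rik, Mir1894 with that of Ppp1r10 and Mir335 with that of Mest.

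Most shared intervals stood under exactly 2 genes. In the GFI1:DAM list 263 stood under 2 genes, 15 under 3 and 1 under 4. In the GFI1B:DAM list 349 stood under 2 genes, 26 under 3, 4 under 4, 1 under 7 and 1 under 9. Shared intervals were slightly wider than intervals under 1 gene. Their median width was 1301 bp (quartiles 851 and 1851) against 1201 bp for GFI1:DAM, and 1401 bp (quartiles 1001 and 2101) against 1351 bp for GFI1B:DAM. At the threshold of the rule, intervals under exactly 2 genes had a median width of 1251 bp in the GFI1:DAM list and 1401 bp in the GFI1B:DAM list. Those under at least 3 genes had a median of 1726 bp in either list. Intervals of 3 kb or more made up 7.53% of the shared intervals against 3.69% of the others for GFI1:DAM, and 8.92% against 6.04% for GFI1B:DAM.

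Reads per kb, the authors' read number divided by interval length, differed little between shared and other intervals where the reads are known. The files give reads per gene, so the reads of an interval are known only where a gene listed with it has no other interval, as held for 221 of 279 shared intervals of GFI1:DAM and 300 of 381 of GFI1B:DAM. Among 1-gene intervals they are known for 3599 of 6887 of GFI1:DAM and 3359 of 7214 of GFI1B:DAM. Each of these is the only interval of its gene, so the comparison leaves out genes with several intervals of their own. The median was 48.7 reads per kb (quartiles 38.8 and 68.3) in shared intervals of GFI1:DAM and 48.5 in its 1-gene intervals. It was 54.4 reads per kb (quartiles 42.1 and 80.6) in shared intervals of GFI1B:DAM and 52.8 in its 1-gene intervals. Shared intervals ranged from 21.5 to 359 reads per kb in the GFI1:DAM list and from 17.8 to 2426 in the GFI1B:DAM list. The same reads were listed whole under each gene: in all 101 intervals of GFI1:DAM and all 158 of GFI1B:DAM with at least 2 genes that had no other interval, the read numbers of those genes were identical.

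Shared intervals lay on every chromosome with more than 2 intervals. Leaving out Y, their share ran from 1.24% on chromosome 10 to 6.37% on chromosome 2 for GFI1:DAM, and from 2.00% on chromosome 19 to 8.12% on chromosome 16 for GFI1B:DAM.

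Antisense genes stood out by how often their listing involved a shared interval. Of the antisense genes in the GFI1:DAM list, 46 of 92 (50%) had a shared interval, and in the GFI1B:DAM list 68 of 101 (67.3%) did. Processed transcripts followed with 18 of 38 and 18 of 40, and lincRNAs with 67 of 303 (22.1%) and 81 of 344 (23.5%). Among protein-coding genes the figures were 309 of 4162 (7.42%) and 465 of 4346 (10.7%). Pseudogenes were lowest of these classes, with 12 of 315 (3.81%) and 10 of 216 (4.63%). Sense intronic genes, few in number, had 2 of 2 and 4 of 4. Antisense and sense intronic genes are named for their position at another gene, so their shares are not independent of the annotation. The small RNA genes together had 27 of 308 (8.77%) and 25 of 267 (9.36%), and among them snoRNAs had 13 of 84 and 11 of 56. Over all biotypes, 365 genes of the GFI1:DAM list (6.97%) and 528 of the GFI1B:DAM list (9.91%) were listed through shared intervals alone.

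**Figure D1:**
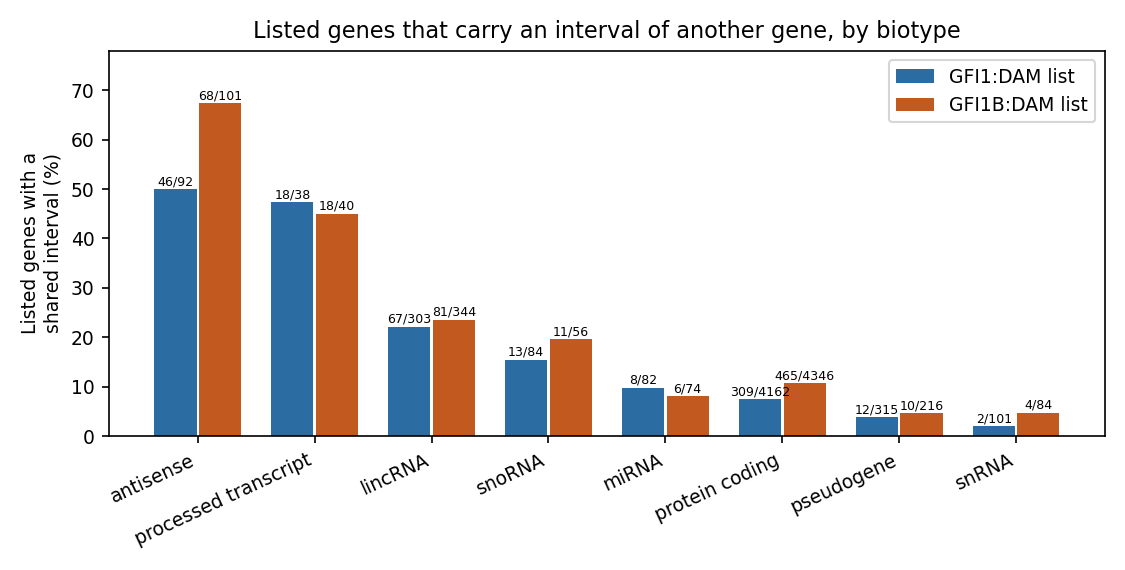
Bars give the percentage of the listed genes of each biotype that had at least 1 shared interval, for the GFI1:DAM list and the GFI1B:DAM list, with the number with a shared interval over the number listed printed above each bar. Antisense genes reached 50% and 67.3%, while protein-coding genes stood at 7.42% and 10.7%.

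The shared intervals formed 281 gene pairs in the GFI1:DAM list and 438 in the GFI1B:DAM list, 568 different pairs in all. Pairs of 2 coding genes were the most frequent class, with 95 (33.8%, exact 95% binomial interval 28.3% to 39.7%) for GFI1:DAM and 191 (43.6%, 38.9% to 48.4%) for GFI1B:DAM. Pairs that come from the same interval or hold the same gene are not independent, so these binomial intervals are too narrow. Coding genes paired with a lincRNA gave 57 (20.3%) and 77 (17.6%) pairs. Coding genes paired with an antisense gene gave 47 (16.7%) and 71 (16.2%). A small RNA was the partner in 25 (8.90%) and 23 (5.25%) pairs, another noncoding gene in 22 and 29, and a pseudogene in 12 and 21. No coding gene took part in 23 and 26 pairs. Pairs with the same symbol under 2 identifiers, such as Flrt3, Tex9, Hivep3 and Fryl, numbered 8 and 10.

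The same pair was found in both lists 151 times, which is 53.7% of the GFI1:DAM pairs and 34.5% of the GFI1B:DAM pairs. For comparison, 56.4% of all GFI1:DAM genes were also in the GFI1B:DAM list, and 55.4% of all GFI1B:DAM genes were also in the GFI1:DAM list. In 136 of the 151 pairs the shared intervals themselves overlapped. Of the 95 coding pairs of GFI1:DAM, 63 were in both lists, as were 31 of its 57 lincRNA pairs, 28 of its 47 antisense pairs and 8 of its 25 small RNA pairs. Of its 12 pseudogene pairs 1 was in both lists, that of Tmem107 with Gm12306.

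**Figure D2:**
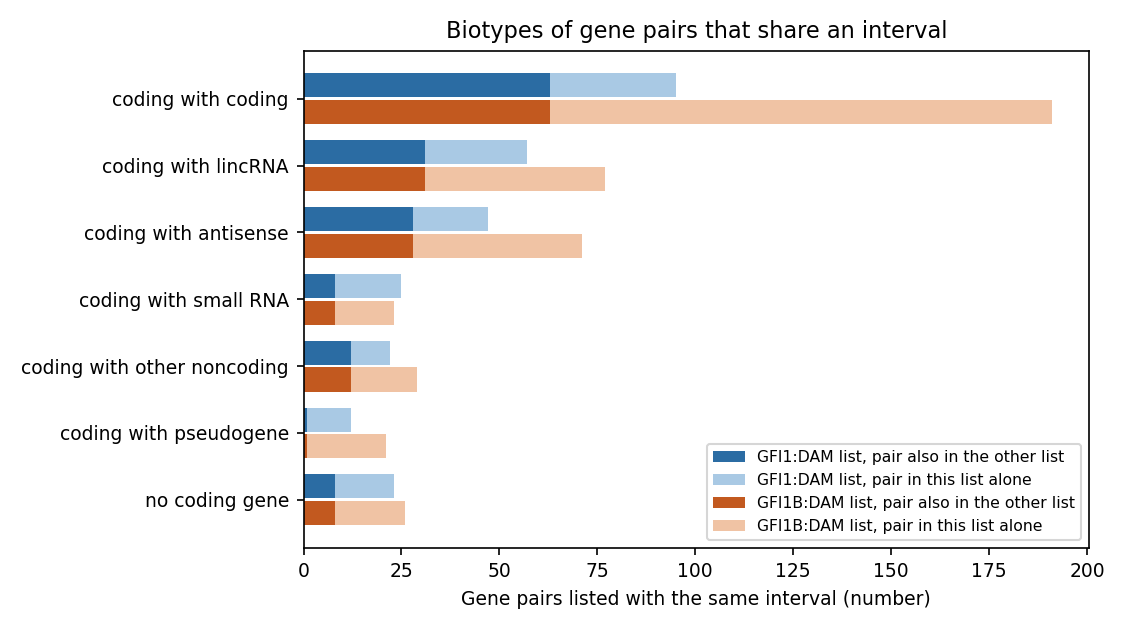
Each bar counts gene pairs listed with the same interval, by the biotypes of the pair and by list. The dark part is the number found in both lists and the light part the number found in that list alone. Pairs of 2 coding genes reached 95 and 191, of which 63 were in both.

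Coding genes and their noncoding partners differed in how much of their listing was shared. Among coding genes paired with any noncoding gene, 79 of 163 pairs of GFI1:DAM had a coding gene with a further interval of its own, while the noncoding partner had one in 16. The counts for GFI1B:DAM were 83 and 23 of 221 pairs. Small RNA partners had an interval of their own in 0 of 25 and 0 of 23 pairs. Antisense partners had one in 2 of 47 and 5 of 71 pairs. Where a coding and noncoding pair was found in the GFI1:DAM list alone, 83 in number, the GFI1B:DAM list still held the coding gene without its partner in 46 and the partner without the coding gene in 7. Of the 141 such pairs in the GFI1B:DAM list alone, the GFI1:DAM list held the coding gene without its partner in 51 and the partner alone in 13. The other list held both genes in 5 of the 83 and 5 of the 141, and neither in 25 and 72. Over all genes, 56.4% of the GFI1:DAM list and 55.4% of the GFI1B:DAM list were also in the other list. That share was not counted by biotype.

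The strongest antisense pair in both lists was Etl4 with Gm17171, a gene nested in it on the opposite strand. Its interval had 170 reads per kb in the GFI1:DAM list (chr2:20226818-20227618, mm9) and 121 in the GFI1B:DAM list (chr2:20226772-20227622). Fndc3a, a fibronectin type III domain protein, and Gm16549 had 89.6 and 82.2 reads per kb. Hoxb3, a homeobox factor of the Hoxb cluster, was listed with Gm11536 at 77.2 and 83.7. Igf1, an insulin-like growth factor, was listed with Gm16176 at 67.5 and 85.1. Tbx3, a T-box factor, and Gm2301 had 53.4 and 55.7, and the histone H3 lysine 9 methyltransferase gene Suv39h1 and Gm14820 had 27.4 and 33.7 in intervals that did not overlap. Of these 6 pairs Etl4 was the highest and Suv39h1 the lowest in both lists. Other coding genes with an antisense partner in both lists were Nfib, Fgf10, Crtc3, Nr6a1, Plxna4, Bcat1 and Ppp1cb. Ppp1cb, a catalytic subunit of protein phosphatase 1, and Gm15614 had 161 reads per kb in the GFI1:DAM list, and the reads of their GFI1B:DAM interval are not known. Apart from Etl4, Fndc3a, Hoxb3 and Ppp1cb, the genes of this paragraph were chosen after their values were seen.

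Other antisense pairs were in 1 list alone. In the GFI1:DAM list Bach2, a repressor in B and T cells, shared an interval with BC024582 at 45.6 reads per kb and had 9 further intervals of its own. Bach2 also shared an interval with Gm11932 in that list, at 32.7 reads per kb, and this interval overlapped a GFI1B:DAM interval. In the GFI1B:DAM list Lima1, an actin-binding protein, and Gm17057 had 230 reads per kb, the highest value of an antisense pair. Klf7 with Gm13748 had 71.3, Tox with Gm11802 had 72.5 and Zeb2, a zinc-finger repressor, with Gm13476 had 44.0. Cav1, the main protein of caveolae, and Gm15581 had 25.8. Gnas and its antisense gene Nespas, both of an imprinted locus, shared 2 intervals in that list. Apart from Bach2 and Lima1, these genes were chosen after their values were seen.

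The lincRNA pairs held the highest values among pairs with known reads in both lists. Myl12a, a myosin light chain, was listed with Gm16724 at 247 reads per kb in the GFI1:DAM list and 369 in the GFI1B:DAM list. Tmem120b and Gm17627 had 164 and 210. Zfp608, a zinc-finger gene, was listed with the lincRNAs Gm17270 and Gm4221 at 125 and 206 reads per kb. In these 3 cases the GFI1B:DAM value was the higher, and it also was for Nmt1, a protein myristoyl transferase, with Gm17536 at 92.9 and 130. The opposite order was seen for Kdm2b with A930024E05Rik, at 92.8 and 66.4. Because the lists were not scaled to each other, the order within a list can be read but not the difference between the lists.

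Among the other lincRNA pairs of both lists, Sox4, a transcription factor gene, and Gm17419 had 68.3 and 94.2 reads per kb, and Tcf7, a factor of Wnt signalling and T cells, with Gm16953 had 66.6 and 73.7. Srf, which drives actin and muscle genes, was listed with Gm16736 at 42.1 and 52.3. The same lincRNA was listed with Ptk7, a receptor-like kinase, at 64.6 and 66.3. Gadd45a, a stress gene, was listed with E230016M11Rik at 87.6 and 106. Angpt1, the angiopoietin that binds TIE-2, was listed with Gm17473 at 53.6 and 61.0. Mllt10, a gene fused in some leukaemias in humans, was listed with 1810059C17Rik at 89.4 and 90.4. Except for Gadd45a, the genes of this paragraph, like Nmt1 above, were chosen after their values were seen.

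The highest lincRNA values were found in the GFI1B:DAM list alone. Skap1, an adaptor of T cells, was listed with 2010300F17Rik at 2426 reads per kb (chr11:96597423-96598223, mm9), and 1810011O10Rik with Gm16625 at 995 (chr8:25548075-25549475). Ppp2ca, the catalytic subunit of protein phosphatase 2A, was listed with Gm16953 at 410 (chr11:51921123-51922173). These intervals overlapped no GFI1:DAM interval. Gm16953 stood in 3 pairs of the GFI1B:DAM list, with Ppp2ca, Tcf7 and Ube2b. Igf2, an imprinted growth factor gene, and Igf2as had 47.3 reads per kb in the GFI1B:DAM list. In the GFI1:DAM list alone, Sox5 was listed with Gm15686 at 75.3 and with 4933425H06Rik at 54.2, and Prmt1, the main arginine methyltransferase, with Gm15545 at 76.7. The Prmt1 interval overlapped a GFI1B:DAM interval, though the pair was not listed there. Ube2b, Igf2, Sox5 and Prmt1 were chosen after their values were seen.

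Small RNA pairs held both nested and neighbouring genes. In both lists, Fndc3b and Mir3092, nested within it, had 140 and 146 reads per kb (chr3:27483593-27484293 and chr3:27483576-27484276, mm9). Tmem107 was listed with its neighbour Snord118, which encodes the U8 snoRNA of ribosomal RNA maturation, and with the pseudogene Gm12306, at 65.1 and 65.4. The interval of 1810009A15Rik, 5730408K05Rik and Mir5136 had 62.0 and 82.0. Ppp1r10, a subunit that targets protein phosphatase 1 to the nucleus, and Mir1894, nested within it, had 38.1 and 43.5. Cep68 and a 7SK gene had 42.4 and 59.1. Of these 5 loci Fndc3b was the highest and Ppp1r10 the lowest in both lists. Ppp1r10 and Cep68 were chosen after their values were seen.

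Other small RNA pairs were in 1 list alone. The GFI1:DAM list had Gnb2l1, a ribosomal scaffold protein, with Snord95 and Snord96a at 50.3 reads per kb, Rps13 with Snord14a at 29.5 and Sf3b3 with SNORD111 at 39.3. The Sf3b3 interval overlapped a GFI1B:DAM interval, though the pair was not listed there. The GFI1B:DAM list had Rpl13a with Snord32a at 78.7, Taf1d with SNORA40 at 38.8 and the noncoding host Gas5 with SNORD24, SNORD44 and SNORD75 at 54.9. Mest and Mir335 had 55.8. Alyref2, an RNA export factor, B930036N10Rik and a U5 gene had 633 reads per kb there (chr1:173432334-173434034, mm9), the third highest of the shared intervals with known reads. Of the 25 small RNA pairs of GFI1:DAM and the 23 of GFI1B:DAM, 8 were in both lists. Rps13, Sf3b3, Rpl13a, Taf1d and Mest were chosen after their values were seen.

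Among pairs of 2 coding genes in both lists, Patl2, a translational repressor of oocytes, and Trim69, nested in it on the opposite strand, had 151 and 173 reads per kb. Arid3b, an ARID-domain transcription factor, and Gm17231 had 151 and 137. Cox16, an assembly factor of cytochrome oxidase, and Gm20498 had 143 and 126. The first 10 of the GFI1:DAM intervals by reads per kb also held 2010107H07Rik with Pbrm1, a subunit of the PBAF chromatin remodeller, at 359 (chr14:31907313-31909263, mm9), and Rrm2b, a ribonucleotide reductase subunit, with the pseudogene Gm3362 at 159. For GFI1B:DAM they held Strbp with Rabgap1 at 197.

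Further pairs of both lists included nested and neighbouring coding genes. Rb1, the retinoblastoma gene, and Lpar6, a receptor gene nested in it, had 67.8 and 99.2 reads per kb. Flrt3, nested in Macrod2 on the opposite strand, had 62.8 and 49.96. Clec1a and Clec9a, neighbouring C-type lectin genes, had 76.3 and 86.4. Fancc, a DNA repair gene of the Fanconi pathway, and 2010111I01Rik shared 2 intervals in the GFI1:DAM list and 1 in the GFI1B:DAM list. Xrcc4, a factor of DNA end joining, shared 3 intervals with the lincRNA Gm4117 in the GFI1:DAM list and 1 in the GFI1B:DAM list. The genes of this paragraph were chosen after their values were seen.

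**Figure D3:**
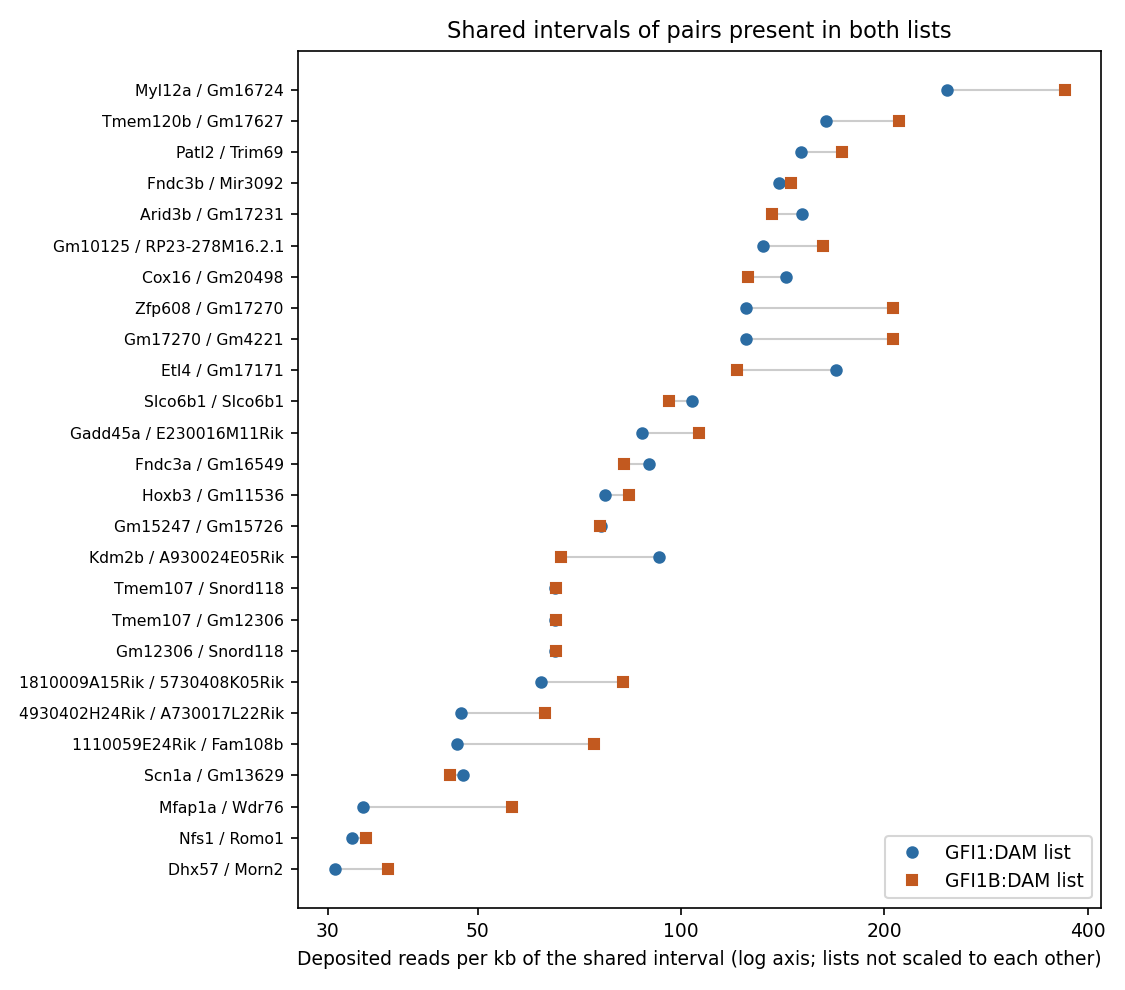
Points give the deposited reads per kb of the shared interval for the strongest pairs of each class and for the divergent neighbours found in both lists, with circles for the GFI1:DAM list and squares for the GFI1B:DAM list, on a log axis. Values ran from 30.8 for Dhx57/Morn2 to 369 for Myl12a/Gm16724, and the lists were not scaled to each other.

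Of the 151 pairs in both lists, 111 had known reads in each. Their median was 53.8 reads per kb in the GFI1:DAM list (range 24.7 to 247) and 56.6 in the GFI1B:DAM list (range 17.8 to 369).

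The arrangement of the genes was read from a RefSeq gene table on GRCm38.p6, used for order, overlap and strand. Both genes matched the table for 149 of 281 pairs of GFI1:DAM (53.0%) and 256 of 438 of GFI1B:DAM (58.4%). In 82 (55.0%) and 148 (57.8%) of these pairs the genes overlapped or were nested, in 36 (24.2%) and 64 (25%) they were next neighbours, and in 19 (12.8%) and 29 (11.3%) another gene lay between them. The remaining 12 and 15 pairs were 1 gene in the table. No strand was unknown in 95 and 160 of the matched pairs, among them the pairs that were 1 gene in the table. The orientation of the other matched pairs was unknown. The most frequent arrangement with known strands was nested on opposite strands, with 22 pairs of GFI1:DAM and 28 of GFI1B:DAM.

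Divergent pairs, adjacent or overlapping with starts facing away from each other, made up 15 (10.1%) of the matched GFI1:DAM pairs and 44 (17.2%) of the matched GFI1B:DAM pairs, and 10 were in both lists. These shares are over all matched pairs, including those of unknown orientation. Convergent pairs, whose ends face each other, numbered 21 and 25, and 16 were in both. The lists thus differed more in their number of divergent than of convergent pairs. Convergent pairs included Agpat2 with Egfl7, Rabgap1 with Strbp and Baiap2l1 with Bri3, of which Baiap2l1 with Bri3 was chosen after its values were seen.

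**Figure D4:**
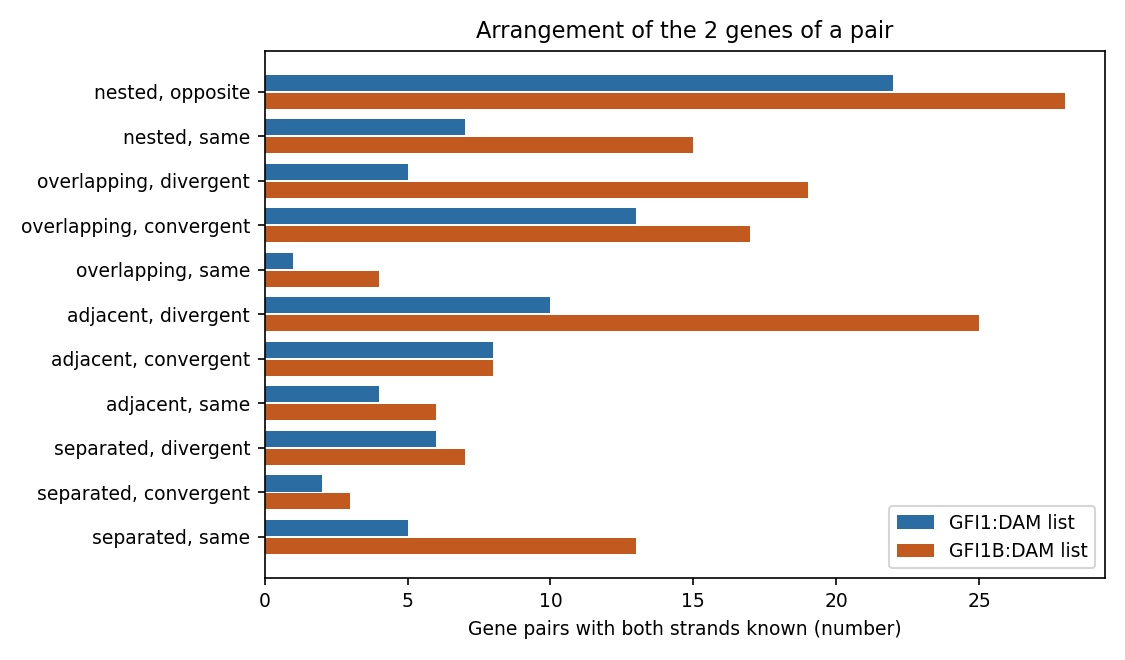
Bars count the pairs with both strands known by the arrangement of the 2 genes in the GRCm38.p6 table, for each list. Divergent pairs, adjacent and overlapping together, numbered 15 for GFI1:DAM and 44 for GFI1B:DAM, while convergent pairs numbered 21 and 25.

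The divergent pairs in both lists with known reads were led by Gadd45a/E230016M11Rik, Kdm2b/A930024E05Rik and 1810009A15Rik/5730408K05Rik. Kdm2b, a histone demethylase that binds CpG islands, and its lincRNA had 92.8 reads per kb over chr5:123443282-123444832 (mm9) in the GFI1:DAM list and 66.4 over chr5:123442382-123444882 in the GFI1B:DAM list. 1110059E24Rik and Fam108b had 46.6 and 74.5. Scn1a, a neuronal sodium channel, and the antisense gene Gm13629 had 47.6 and 45.5. Mfap1a, a spliceosome component, and Wdr76, a WD-repeat protein, had 33.9 and 56.3. Nfs1, the cysteine desulfurase of iron-sulfur cluster assembly, and Romo1, a small mitochondrial protein, had 32.6 and 34.2. Dhx57, a helicase, and Morn2 had 30.8 and 36.8. Kdm2b was the highest of the 5 head-to-head pairs for GFI1:DAM, and 1810009A15Rik for GFI1B:DAM.

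Head-to-head pairs with overlapping promoter windows numbered 12 for GFI1:DAM and 27 for GFI1B:DAM. Of the 27, 2 were the same pair of table genes under different names, which leaves 26. The GFI1:DAM list alone held 7, among them Gfm2, a mitochondrial elongation factor, with Nsa2, a ribosome assembly factor, at 74.6 reads per kb. It also held Prmt7, an arginine methyltransferase, with Slc7a6os at 36.9, Cdc14b, a phosphatase, with the lincRNA 1810034E14Rik at 47.0, and Rrp15 with A430105J06Rik at 28.6. The intervals of Prmt7 and Rrp15 overlapped a GFI1B:DAM interval, though these pairs were not listed there.

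The GFI1B:DAM list alone held 22 head-to-head pairs by name, most of them of 2 coding genes. Ftsj2, a mitochondrial RNA methyltransferase, and Nudt1, which clears oxidised nucleotides, had the highest value at 197 reads per kb. Bcl2l12 and Irf3, the interferon regulatory factor, had 120, and Aurka, the mitotic kinase Aurora A, with Cstf1, a factor of transcript cleavage, had 88.1. Sin3a, the scaffold of a histone deacetylase corepressor, and the lincRNA 2700012I20Rik had 88.2. Fam35a and Glud1, glutamate dehydrogenase, had 82.3, and Afmid with Tk1, thymidine kinase, had 77.7. Lrrc40 and Srsf11, a splicing factor, had 65.3, and Coq6, of ubiquinone synthesis, with Fam161b had 63.6. Hadha and Hadhb, which encode the alpha and beta subunits of the mitochondrial trifunctional protein, had 50.3. Mitd1 and Mrpl30, a mitochondrial ribosomal protein, had 28.9, and Cpsf3, the endonuclease of polyadenylation, with Itgb1bp1 had 24.9. The Cpsf3 interval overlapped a GFI1:DAM interval, though the pair was not listed there. The pairs of this and the preceding paragraph were chosen after their values were seen.

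To set these counts against all such loci, the table held 1616 head-to-head pairs with overlapping windows. The GFI1:DAM list had 1 interval under both genes of 12 of them (0.743%), both genes without a common interval for 32 (1.98%), a single gene of the pair for 401 (24.8%) and neither gene for 1171 (72.5%). The GFI1B:DAM list had a common interval for 26 (1.61%), both genes without one for 40 (2.48%), a single gene for 381 (23.6%) and neither for 1169 (72.3%). Where any gene of such a locus was listed, it was thus more often a single gene than both, in either list.

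Motif counts in the promoter windows are a description of letters, given for each pair over both of its windows and on both strands. GATC was in the windows of 10 of the 12 GFI1:DAM pairs (83.3%), 14 of the 26 GFI1B:DAM pairs (53.8%) and 56.8% of all 1616 pairs. AATC, the core of the GFI1 and GFI1B recognition sequence, was in 8 of 12 (66.7%), 21 of 26 (80.8%) and 73.6%. CCGGAA, a core of ETS factor sites, was in 7 of 12 (58.3%), 16 of 26 (61.5%) and 38.3%. TATAAA was in 1 of 12, 2 of 26 and 7.55% of all pairs. None of these motifs contains another, the numbers of pairs are small, and no test was made. Over single promoters of the table, CCGGAA was in 15.2% of 27025 genes and in 19.1% of the 17492 coding genes among them. It was in 25.7% of 152 coding genes with a shared interval and 20.2% of 3056 without one in the GFI1:DAM list, and in 27.3% of 256 and 20.6% of 3083 in the GFI1B:DAM list. Among the printed windows, that of Mfap1a, Nfs1, Kdm2b and Aurka held CCGGAA, and that of Bcl2l12 held TATAAA.

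The overlap of shared intervals with the other fusion differed between the lists. Of the shared intervals of GFI1:DAM, 139 of 279 overlapped an interval of GFI1B:DAM by at least 1 base (49.8%, exact 95% binomial interval 43.8% to 55.8%), against 39.2% of all its intervals and 38.8% of its 1-gene intervals. Of the shared intervals of GFI1B:DAM, 137 of 381 overlapped an interval of GFI1:DAM (36.0%, 31.1% to 41.0%), against 36.9% of all its intervals and 37.0% of its 1-gene intervals. The share for GFI1:DAM thus stood above its background, and that for GFI1B:DAM was close to it. In most overlaps the other interval was shared as well, with 123 of the 139 and 123 of the 137. Over whole lists, 5.02% of GFI1B:DAM and 3.89% of GFI1:DAM intervals were shared. Overlapping intervals lie at the same place, so their gene assignments are not independent and this count carries no test. When overlap had to cover 50% of both intervals, 104 of the 279 (against 28.5% of all) and 101 of the 381 (against 26.9% of all) overlapped. Start and end were identical for 1 of the 279 (against 0.349% of all) and 1 of the 381 (against 0.329% of all). The lists may rest on the same control reads, so no test of this overlap was made.

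Width moved with the overlap. Among GFI1:DAM intervals of up to 1 kb, 38.5% of 91 shared and 28.3% of 2480 1-gene intervals overlapped. Between 1 and 2 kb it was 54.1% of 133 and 39.9% of 3345, and above 2 kb 58.2% of 55 and 59.5% of 1062. For GFI1B:DAM the shares were 24.4% of 90 and 25.5% of 1953 up to 1 kb, 36.2% of 185 and 36.3% of 3723 between 1 and 2 kb, and 45.3% of 106 and 53.1% of 1538 above 2 kb. The higher share of the shared GFI1:DAM intervals was found up to 2 kb and not above.

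**Figure D5:**
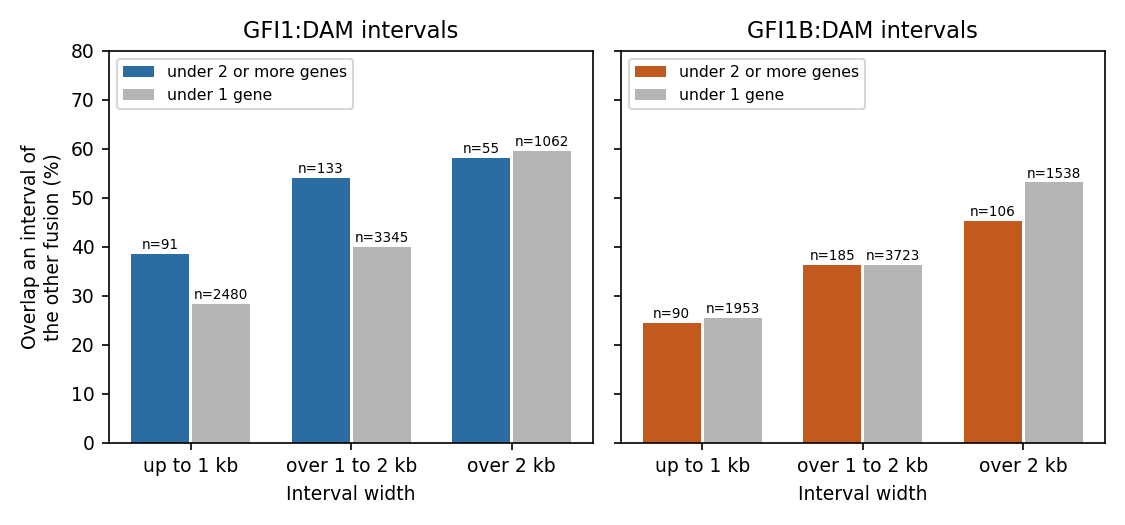
Bars give the percentage of intervals that overlap an interval of the other fusion by at least 1 base, in 3 classes of width, for shared intervals (coloured) and 1-gene intervals (grey), with the number of intervals above each bar. For GFI1:DAM the shared intervals were higher up to 2 kb (54.1% against 39.9% between 1 and 2 kb), and for GFI1B:DAM they were level or lower (36.2% against 36.3%).

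A few genes took part in many pairs. Fgfr2, a fibroblast growth factor receptor, had 6 partners in the GFI1:DAM list through 7 of its 13 intervals and 9 partners in the GFI1B:DAM list through 12 of its 16. Its partners Ate1, Fam175b, Fam53b and Tacc2 were in both lists, and in the table these genes are separated from Fgfr2 by others. Gm20388 had 5 and 8 partners, among them Ankrd11, Banp and Spire2 in both. Arfip1 had 5 partners in the GFI1B:DAM list through 10 of its 18 intervals, among them Fbxw7, a ubiquitin ligase subunit. The intervals listed under Fgfr2 spanned 2725 kb in the GFI1:DAM list and 2878 kb in the GFI1B:DAM list. Those under Gm20388 spanned 4194 and 4240 kb, and those under Arfip1 spanned 1361 kb in the GFI1B:DAM list. Fgfr2, Gm20388 and Arfip1 were chosen after their values were seen. Mid1, a microtubule-associated ubiquitin ligase on the X chromosome, had 4 partners in either list. Its interval with Gm15247, Gm15726 and Gm17379 was the GFI1:DAM interval under the most genes, at 76.1 reads per kb (chrX:166419805-166425405, mm9).

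In the GFI1B:DAM list the intervals under the most genes lay in the Ugt1a locus. Its genes encode UDP-glucuronosyltransferases that have their own first exons and share the exons that follow. The interval chr1:90046784-90050984 (mm9) was listed under 9 genes at 46.4 reads per kb, chr1:90030584-90031584 under 7 and chr1:89990134-89991534 under 4. They overlapped no GFI1:DAM interval, and Ugt1a pairs were absent from the GFI1:DAM pairs. The locus gave 36 of the 438 GFI1B:DAM pairs, 15 of them of 2 coding genes and 12 of a coding gene with a pseudogene. Without it, 176 of 402 pairs (43.8%) were of 2 coding genes and 9 (2.24%) of a coding gene with a pseudogene. Of the 402, 151 (37.6%) were in both lists. The count of coding genes paired with a pseudogene in GFI1B:DAM therefore rested on that locus for 12 of 21 pairs.

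Genes of the cell type and of the known partners of GFI1 and GFI1B with a shared interval numbered 1 or 2 per gene list. These counts are too small to place their shares above or below that of all listed genes. Over all listed genes, 9.28% had a shared interval in the GFI1:DAM list and 12.7% in the GFI1B:DAM list. Of the endothelial list, 1 of 15 genes in the GFI1:DAM list and 1 of 22 in the GFI1B:DAM list had one, in both cases Egfl7, a protein secreted by endothelium. Its single interval was listed with Agpat2 and Gm20532, at 53.8 reads per kb over chr2:26448268-26449568 (mm9) and 66.2 over chr2:26448022-26451422. Of the haematopoietic regulators, Bach2 was the 1 of 9 listed genes for GFI1:DAM, and Gata3, a zinc-finger factor of T cells, was the 1 of 11 for GFI1B:DAM. Gata3 was listed with 9230102O04Rik at 51.5 reads per kb and had 1 further interval. Of the genes of LSD1, the histone demethylase that GFI1 proteins recruit, and other corepressors, Rbbp4 was 1 of 8 for GFI1:DAM, with the lincRNA Gm17525 at 45.0. For GFI1B:DAM, Ctbp2 and Sin3a were 2 of 11, and neither had an interval of its own. Ctbp2, a corepressor, shared 3 intervals with Fgfr2. Of the DNA repair and replication list, 0 of 10 and 0 of 9 listed genes had a shared interval, but that list leaves out Fancc and Xrcc4, which had one in both lists.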

How the data were processed

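DamID values of 2 samples, GFI1:DAM and GFI1B:DAM, were taken from the authors' 2 deposited gene lists, and each list was assigned to its fusion by its worksheet name. Read numbers, deposited for each gene, were handled as a score, because control reads were subtracted for GFI1B:DAM per the file headers, and the GFI1:DAM header is silent on this. The second deposited value, a signal, is reads per kb. Dividing reads by summed length gave the deposited value within 0.005 in all 5238 and 5327 rows. Per the file headers, the GFI1B:DAM list was made with BayesPeak and with a step called SS (threshold 0.05) on merged lanes, and the GFI1:DAM header stops after BayesPeak. Coordinates are in mm9, as the submitters' processing notes state. For the aligner, the name was not given in the sources used here. Depth is unknown, and 0 columns of other samples were left unused.

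Intervals were split, pooled by identical coordinates and counted by gene identifier with Python 3.11.15 and pandas 2.3.3, and exact binomial intervals came from scipy 1.17.1. No 2 intervals of a list overlapped each other. Biotypes are the authors'. Symbols were matched to RefSeq genes of GRCm38.p6 for order and strand, which the files do not give, and none of that table's coordinates were joined to mm9. Promoter windows carry strand and were used for orientation. On 2000 simulated intervals with 100 shared, 13 of 13 checks were passed.

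Genes named without remark followed a rule: per list, the 5 intervals under the most genes and the 10 with the highest known reads per kb; in both lists, the 3 strongest pairs of each biotype class and the 10 strongest divergent pairs; and pairs with genes of the fixed lists. Some items that the rule names are not reported here. The members, the gene lists and the rule were chosen with earlier results of these data known. Alternatives were other overlap rules, coding genes only, the stronger 50% of genes, genes spanning 1 Mb or more left out, and reference gene types.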

Additional observations from a re-analysis of the deposited data

How the results depend on the processing

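Each fusion is 1 sample, so no spread between replicates was available and the limits of these lists are those of 1 sample each. Of 42 alternative values for 14 results, 28 stayed within the counting interval or the tolerance set for counts and 14 moved. Reversal of a result was not assessed. For shares of pairs, the counting interval treats the pairs as independent, which they are not. Of the 28, 4 came from joining overlapping intervals and could not move, because no intervals of a list overlapped each other. With coding genes only, shared intervals numbered 111 (1.82%) for GFI1:DAM and 185 (2.79%) for GFI1B:DAM, since fewer genes were counted. With the stronger 50% of genes they numbered 128 (3.54%) and 192 (4.91%). These counts fell by the same construction, while the shares stayed within the counting interval. When overlap had to cover 50% of both intervals, 37.3% of the shared GFI1:DAM intervals (28.5% of all) and 26.5% of the shared GFI1B:DAM intervals (26.9% of all) overlapped the other fusion. With identical ends it was 0.358% (0.349% of all) and 0.262% (0.329% of all). Pairs of 2 coding genes made up 52.3% and 59.8% of the pairs matched to the reference table by its gene types. By the deposited biotypes they made up 50.3% and 60.9% of the same pairs, an alternative added after the data were seen, and the move from the main value came from the matched subset. No paired analysis was possible because each group holds 1 sample and no test was made. Reads per kb could not be given for shared intervals whose genes all had further intervals, 58 for GFI1:DAM and 81 for GFI1B:DAM. Orientation was unknown for unmatched pairs and for matched pairs with a gene of unknown strand. The promoter windows used for orientation held no genes of chromosome 18, so no head-to-head pair could be called there.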
